A study of Danio rerio with 12 samples.

Results

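The 7 genes *pcna* (ENSDARG00000054155), *mcm3* (ENSDARG00000024204), *mcm5* (ENSDARG00000019507), *ccna2* (ENSDARG00000011094), *ccnb1* (ENSDARG00000051923), *cdk1* (ENSDARG00000087554) and *top2a* (ENSDARG00000024488) were examined as a readout of DNA replication and mitosis in zebrafish larvae that lacked Zbtb24, Mda5 or both. They were chosen by identifier as known genes of these processes, and all 7 of the 32271 measured features were found and passed the filter on low values. Polyadenylated RNA of larvae aged 3 weeks was sequenced from stranded libraries, with 3 libraries for each of 4 genotypes and 10 larvae pooled in each library. The genotypes were WT, homozygous *mda5* mutant (mk29, a small deletion; the gene is also called *ifih1* and encodes a sensor of double-stranded RNA), homozygous *zbtb24* mutant (mk22, a deletion within the coding sequence of a zinc finger gene mutated in ICF syndrome), and double mutant, homozygous for both alleles. Each mutation is represented by this 1 allele, and Zbtb24 was lost in the whole animal. The study design describes whole larvae, whereas fin is the source named in the labels. Nothing states whether the pools of a genotype came from separate crosses, so the p-values measure the spread between these pools. The comparison of the 4 genotypes asks whether transcripts that mark proliferation differ when Zbtb24 is lost, and whether they do so when Mda5 is also absent.

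DNA is copied in S phase. The MCM2-7 complex, which includes Mcm3 and Mcm5, is loaded on origins and unwinds the template, and PCNA is the sliding clamp that holds the replicative polymerases on it. Cyclin A2 acts from S phase into G2, cyclin B1 activates Cdk1 for entry into mitosis, and topoisomerase IIα disentangles the sister chromatids before they part. In vertebrate cells the replication genes are mainly transcribed from late G1 into S phase and the mitotic genes in G2 and mitosis, and all are low in cells that have left the cycle. In growing fish larvae dividing cells lie in the epidermis, gut, eye, brain, blood-forming tissue and gonad.

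Levels are in FPKM, fragments scaled to the length of the transcript in kilobases and to the mapped fragments of the library. The table holds no fragment counts, so no counting error was computed and the errors given are the spread between libraries. *cdca7*, a gene that depends on ZBTB24 in human and mouse cells, was at 2.53 to 3.48 FPKM in the 6 libraries without the *zbtb24* mutation and at 0.0118 to 0.101 FPKM in the 6 with it, so every library matched its *zbtb24* label. The paper already reports an almost total loss of *cdca7* in *zbtb24* mutants from these libraries, so this check repeats a published result. *ifih1* was at 0.354 to 0.613 FPKM in *mda5* mutants against 0.732 to 0.820 FPKM in WT, and at 0.381 to 0.573 FPKM in double mutants against 1.35 to 1.87 FPKM in *zbtb24* mutants. The level of *zbtb24* itself was higher in mutants (1.06 to 1.74 FPKM against 0.348 to 0.587 FPKM), but a value over the whole gene does not separate exons inside and outside the deletion. The paper, by contrast, reports no detectable *zbtb24* transcripts by qRT-PCR in younger homozygotes of this allele, and proposes that it is null. The 4 most abundant features held 84.2% to 89.9% of the summed FPKM. *zbtb24* mutant replicate 3 stood apart from the other libraries of its genotype for several of the 7 genes, and results that rest on it are given with and without it. Differences are given as log2 changes of FPKM + 0.5 with standard errors from limma, and a gene is called at an adjusted p under 0.05 over 21623 features. In RNA from whole pools, fewer dividing cells and less RNA per dividing cell cannot be told apart.

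The replication genes were highest in larvae that carried the *zbtb24* mutation. *pcna* was at 46.1, 43.1 and 49.3 FPKM in WT replicates 1 to 3, at 42.9, 36.9 and 33.1 FPKM in *mda5* mutants, at 62.0, 55.4 and 41.7 FPKM in *zbtb24* mutants, and at 58.7, 65.1 and 50.8 FPKM in double mutants. All *mda5* mutant libraries lay below all WT libraries, all double mutant libraries lay above both, and *zbtb24* mutant replicate 3 alone kept that genotype from clearing WT. *pcna* was thus 53.0 ± 10.3 FPKM in *zbtb24* mutants and 58.2 ± 7.16 FPKM in double mutants, against 46.2 ± 3.08 FPKM in WT and 37.6 ± 4.96 FPKM in *mda5* mutants (SD, n = 3 each).

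*mcm3* was at 4.21, 3.06 and 3.86 FPKM in WT, 3.74, 3.45 and 3.60 FPKM in *mda5* mutants, 5.25, 4.77 and 4.03 FPKM in *zbtb24* mutants, and 4.97, 5.02 and 4.98 FPKM in double mutants. The double mutant libraries were nearly equal, and all were above every library without the *zbtb24* mutation. *mcm5* was at 4.79, 3.47 and 4.99 FPKM in WT, 3.75, 3.87 and 3.87 FPKM in *mda5* mutants, 6.73, 6.74 and 3.86 FPKM in *zbtb24* mutants, and 5.89, 6.96 and 5.33 FPKM in double mutants. The order of the genotype means was the same for all 3 replication genes, with *mda5* mutants lowest, then WT, *zbtb24* mutants and double mutants. Of the neighbours in this order, the libraries of *mda5* mutants and WT did not overlap for *pcna*, and all other neighbours overlapped.

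The mitotic genes had no common order of genotype means. *ccna2*, which acts between the 2 phases, kept the order of the replication genes, with 5.34, 5.24 and 5.02 FPKM in WT, 5.30, 4.05 and 3.43 FPKM in *mda5* mutants, 6.52, 6.99 and 3.37 FPKM in *zbtb24* mutants, and 5.59, 7.64 and 5.95 FPKM in double mutants. Replicates 1 and 2 of the *zbtb24* mutants lay above every WT library and replicate 3 below every WT library, so that their mean of 5.63 ± 1.97 FPKM was close to the WT mean of 5.20 ± 0.164 FPKM (SD, n = 3). *ccnb1* was at 7.26, 7.99 and 7.81 FPKM in WT, 8.73, 5.66 and 5.31 FPKM in *mda5* mutants, 6.14, 6.55 and 3.27 FPKM in *zbtb24* mutants, and 5.59, 10.0 and 7.57 FPKM in double mutants. Here all *zbtb24* mutant libraries were below WT, whereas those of the other mutants lay on both sides of it.

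*cdk1* was at 9.97, 10.3 and 11.6 FPKM in WT, 11.9, 7.02 and 6.50 FPKM in *mda5* mutants, 9.85, 10.9 and 4.98 FPKM in *zbtb24* mutants, and 9.06, 14.1 and 11.0 FPKM in double mutants. Every mutant genotype overlapped WT. *top2a* was at 8.71, 9.93 and 10.1 FPKM in WT, 10.4, 7.28 and 7.88 FPKM in *mda5* mutants, 7.72, 8.62 and 3.85 FPKM in *zbtb24* mutants, and 7.04, 10.2 and 8.76 FPKM in double mutants. The *zbtb24* mutant libraries again all lay below WT, replicate 2 by little. For *ccnb1*, *cdk1* and *top2a*, all neighbouring genotypes overlapped in the order of their means.

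**Figure D1:**
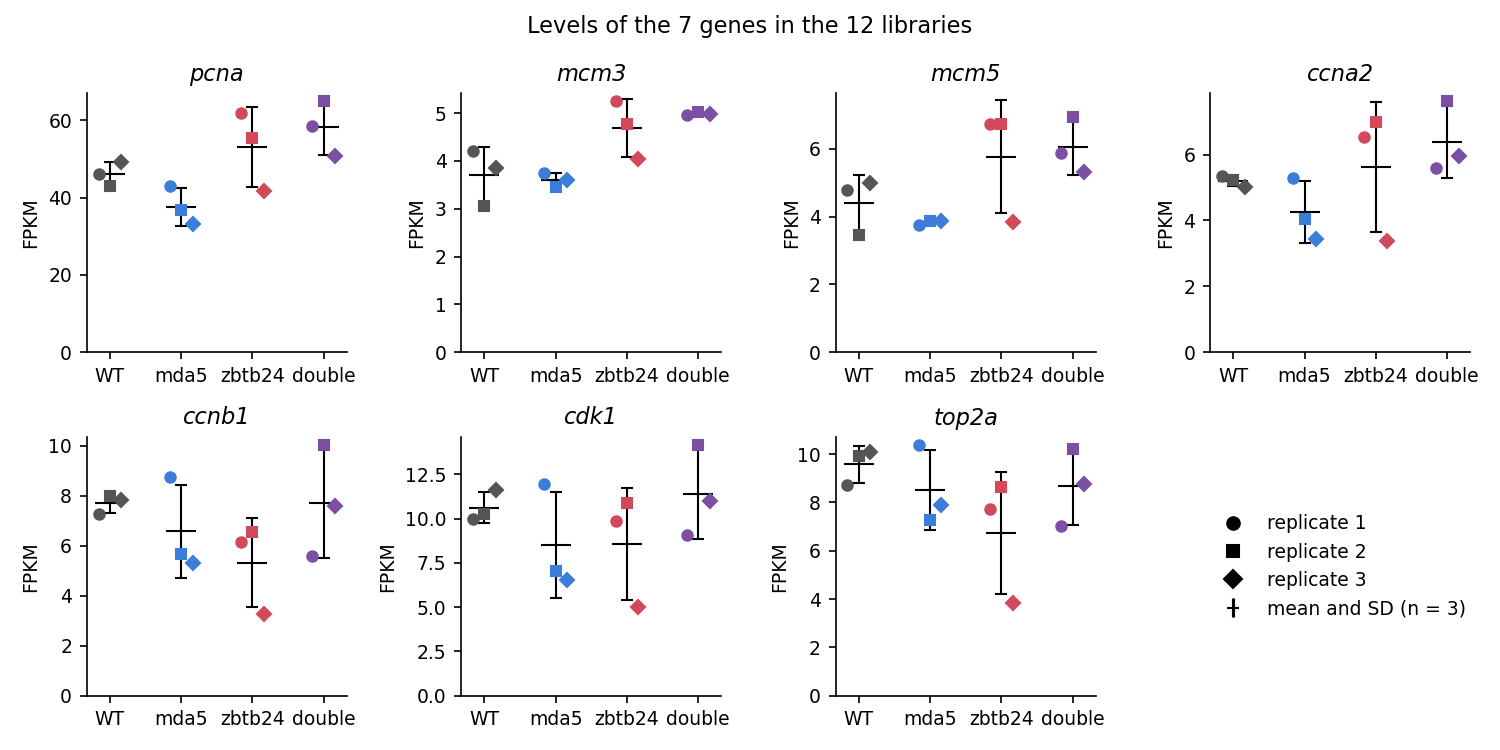
Levels in FPKM (vertical axes, from 0) of each of the 7 genes in the 4 genotypes, with 1 point per library shaped by replicate number and bars for the mean and SD of 3 libraries. The double mutant libraries lie above WT for *pcna*, *mcm3*, *mcm5* and *ccna2*, and *zbtb24* mutant replicate 3 is the lowest of all 12 libraries for *ccna2*, *ccnb1*, *cdk1* and *top2a*.

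Under loss of Zbtb24 alone, the replication genes lay above WT on average and *ccnb1*, *cdk1* and *top2a* below it, but no difference passed the test. In *zbtb24* mutants against WT, 0 of 7 were called in limma, with 11.6% of all tested features called. Of the 7, 1 (*mcm3*) had an unadjusted p under 0.05, as did 6793 of 21623 features. The log2 changes were 0.18 ± 0.16 for *pcna*, 0.30 ± 0.12 for *mcm3* and 0.33 ± 0.20 for *mcm5*, against -0.54 ± 0.27 for *ccnb1*, -0.36 ± 0.29 for *cdk1* and -0.55 ± 0.25 for *top2a* (SE). *ccna2* lay between them at 0.05 ± 0.24. The 95% intervals still allowed sizeable differences, from -0.17 to 0.53 for *pcna* and from -1.11 to 0.01 for *top2a*. All libraries lay below WT for 2 of 7 genes (*ccnb1* and *top2a*), with 18.5% of all features doing so, and above WT for 0 of 7, with 15.6% of all features.

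The level of the 7 genes as a whole in this comparison depended on *zbtb24* mutant replicate 3. Without that library, the median log2 change of the 7 genes was 0.34 instead of 0.05, and 0 were called, with 1145 of 21623 features called. The median over all tested features was -0.02 without the library and -0.0044 with it. Without replicate 1 or replicate 2 of the same genotype the median was -0.08 and -0.13, respectively, and *ccna2* turned from a positive to a negative change. The mean log2 level of *ccna2*, *ccnb1*, *cdk1* and *top2a* relative to WT was -0.10, 0.02 and -0.98 in *zbtb24* mutant replicates 1 to 3. The lower mean of these genes thus came mostly from replicate 3, although *ccnb1* and *top2a* were below WT in every library of the genotype.

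In the absence of Mda5, the *zbtb24* mutation was accompanied by higher values of all 7 genes, and again none was called. In double against *mda5* mutants, 0 of 7 passed the test, with 0.134% of all features called. An unadjusted p under 0.05 was found for 2654 of 21623 features and for 4 of the 7 genes. These were *pcna* at 0.62 ± 0.16 (adjusted p = 0.203 in limma), *mcm3* at 0.42 ± 0.12 (adjusted p = 0.258), *mcm5* at 0.59 ± 0.20 (adjusted p = 0.309) and *ccna2* at 0.54 ± 0.24 (adjusted p = 0.397). *cdk1* was at 0.43 ± 0.29, *ccnb1* at 0.22 ± 0.27 and *top2a* at 0.03 ± 0.25 (log2, SE). For these 4 of 7 genes every double mutant library exceeded every *mda5* mutant library, and for 0 of 7 the reverse held, while 21.2% of all features were without overlap in either direction. The median of the 7 was 0.43, against 0.02 for all features, and it ranged from 0.40 to 0.58 when single libraries were left out.

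Double mutants were also compared with WT and with *zbtb24* mutants. Against WT, 0 of 7 were called, with 0.402% of all features called, and the log2 changes were 0.33 ± 0.16 for *pcna*, 0.39 ± 0.12 for *mcm3*, 0.42 ± 0.20 for *mcm5* and 0.26 ± 0.24 for *ccna2* (SE). They were -0.03 ± 0.27 for *ccnb1*, 0.08 ± 0.29 for *cdk1* and -0.15 ± 0.25 for *top2a*. All double mutant libraries lay above WT for 4 of 7 (*pcna*, *mcm3*, *mcm5* and *ccna2*), with 9.27% of all features doing so. Against *zbtb24* mutants, 0 of 7 were called, with 0.00462% of all features called, and the libraries of the 2 genotypes overlapped for every one of the 7 genes, while 21.4% of all features were without overlap in either direction. The 7 differences were all above 0, between 0.09 for *mcm3* and 0.52 for *ccnb1* (log2), but 4 of them turned negative without *zbtb24* mutant replicate 3 (*pcna* -0.017, *mcm3* -0.0039, *mcm5* -0.15 and *ccna2* -0.085). After the rescaling without the 4 most abundant features *mcm3* was at -0.031 and *mcm5* at -0.026, and without double mutant replicate 2 *mcm5* was at -0.0017. These comparisons share libraries with those above and are not separate evidence.

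Loss of Mda5 alone was accompanied by lower values of all 7 genes within the replicate error. The log2 changes in *mda5* mutants against WT ran from -0.35 for *cdk1* to -0.03 for *mcm3*, and 0 of 7 were called, with 0.00462% of all features called. *pcna*, for which the libraries did not overlap, changed by -0.30 ± 0.16 (SE, adjusted p = 0.412 in limma), and 12.6% of all features had all *mda5* mutant libraries below WT. In this genotype replicate 1 was highest for *pcna*, *mcm3*, *ccna2*, *ccnb1*, *cdk1* and *top2a*. The direction of all 7 turned when FPKM were rescaled without the 4 most abundant features, which moved the median of all tested features from -0.02 to 0.45. Relative to the median of all features, the 7 then ran from -0.29 to -0.01.

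**Figure D2:**
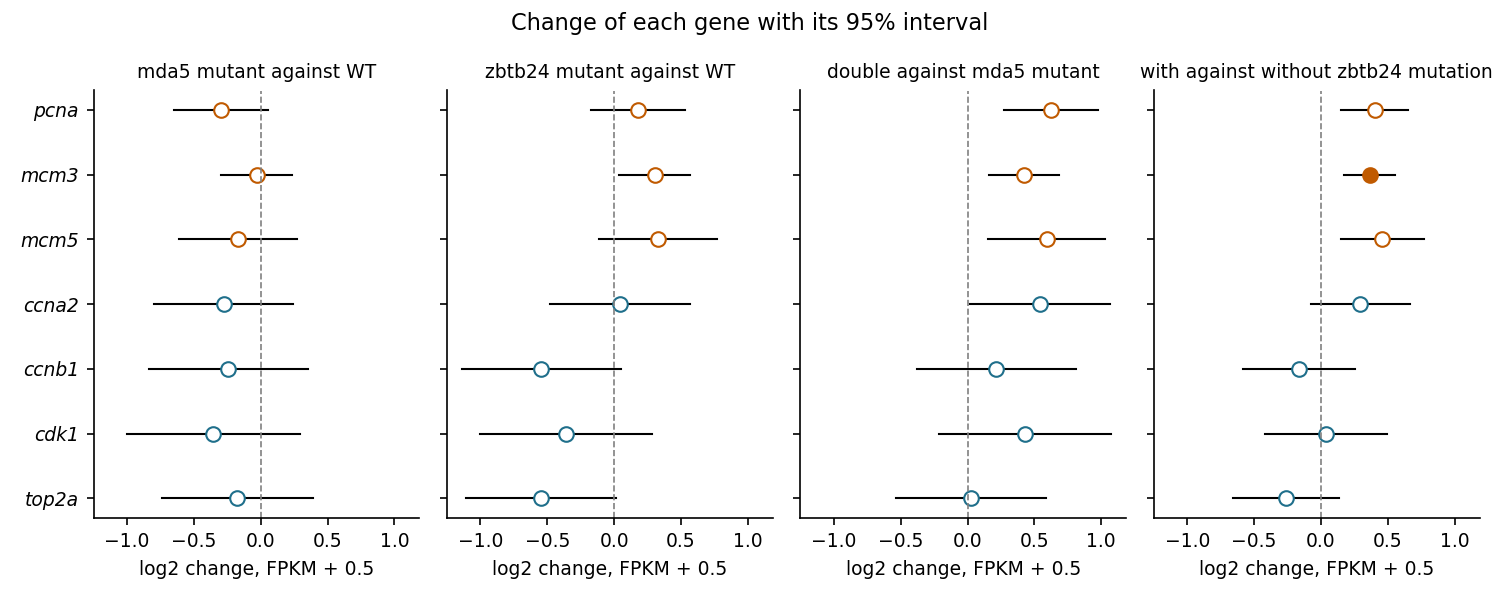
Log2 change of FPKM + 0.5 (horizontal axes) for each of the 7 genes in 4 comparisons, with 95% confidence intervals from limma; orange circles mark replication genes, blue circles the others, and a filled circle an adjusted p under 0.05. Only *mcm3* in the comparison of libraries with and without the *zbtb24* mutation is filled, at 0.36.

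When both *mda5* genotypes were averaged, *mcm3*, which like *mcm5* encodes a helicase subunit, was called higher with the *zbtb24* mutation. It changed by 0.36 ± 0.08 on the log2 scale (SE, adjusted p = 0.0440 in limma), from 3.65 ± 0.387 FPKM in the 6 libraries without the mutation to 4.84 ± 0.422 FPKM in the 6 with it (SD), and 5 of the 6 were above every library without it. This was 1 of 7 genes called, against 3.52% of all features. *pcna* changed by 0.40 ± 0.11 (adjusted p = 0.0764) and *mcm5* by 0.46 ± 0.14 (adjusted p = 0.0957), which did not pass. *ccna2* was at 0.29 ± 0.17, *cdk1* at 0.04 ± 0.21, *ccnb1* at -0.16 ± 0.19 and *top2a* at -0.26 ± 0.18 (SE), and none of these passed.

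The call for *mcm3* was close to the threshold. Its adjusted p was 0.0643 without WT replicate 2 and 0.0836 without WT replicate 3, 0.0730, 0.103 and 0.0909 without *mda5* mutant replicates 1, 2 and 3, 0.0760 and 0.0918 without *zbtb24* mutant replicates 1 and 2, and 0.0776, 0.0938 and 0.0807 without double mutant replicates 1, 2 and 3. Its log2 change stayed between 0.31 and 0.38 in these fits. Without WT replicate 1 the change was 0.41 and the call was kept (adjusted p = 0.0365 in limma). Without *zbtb24* mutant replicate 3, by contrast, 3 of the 7 were called: *pcna* at 0.48 ± 0.09 (adjusted p = 0.0243), *mcm3* at 0.41 ± 0.08 (adjusted p = 0.0257) and *mcm5* at 0.58 ± 0.10 (SE, adjusted p = 0.0163). None of the 4 other genes was called in that fit, which called 859 of 21623 features in place of 761.

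No member showed a called difference between the effects of the *zbtb24* mutation with and without Mda5. In this interaction, 0 of 7 were called, with 0% of all features called. An unadjusted p under 0.05 was found for 5434 of 21623 features and for 0 of the 7 genes. The estimates were 0.44 ± 0.22 for *pcna*, 0.12 ± 0.17 for *mcm3*, 0.26 ± 0.28 for *mcm5*, 0.50 ± 0.33 for *ccna2*, 0.76 ± 0.38 for *ccnb1*, 0.79 ± 0.41 for *cdk1* and 0.57 ± 0.36 for *top2a* (log2, SE). They were all above 0 as deposited, but after the rescaling without the 4 most abundant features 2 of 7 were, with the median of all tested features at -0.55. Relative to that median the 7 ran from 0.08 to 0.70. Their median fell from 0.50 to 0.24 without *zbtb24* mutant replicate 3. A test for any difference among the 4 genotypes called 0 of 7, with 1.60% of all features called, and its lowest adjusted p was 0.124, for *mcm3*.

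The contrast between the 2 roles was visible within libraries, on average more in *zbtb24* mutants than in double mutants. The mean log2 level of *pcna*, *mcm3* and *mcm5*, set to 0 in WT, was 0.48, 0.39 and -0.06 in *zbtb24* mutant replicates 1 to 3 and 0.38, 0.50 and 0.26 in double mutants. The mean of *ccna2*, *ccnb1*, *cdk1* and *top2a* was -0.10, 0.02 and -0.98 in the same *zbtb24* mutants and -0.24, 0.34 and 0.02 in double mutants. In each of these 6 libraries the replication mean exceeded the other by 0.16 to 0.91. The difference lay between -0.22 and 0.27 in the 6 libraries without the mutation, 4 of which also had the higher replication mean, so that the ranges overlapped. It averaged 0.62 in *zbtb24* mutants and 0.48 without their replicate 3. In double mutants the average was 0.34, and 0.20 without their replicate 1, against 0.10 in *mda5* mutants. Between the longer replication and mitosis lists described below, the difference averaged 0.34 in *zbtb24* mutants, 0.17 in double mutants and 0.13 in *mda5* mutants. *zbtb24* mutant replicate 3 was low for both groups of genes relative to its own genotype, and lower for the mitotic ones.

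**Figure D3:**
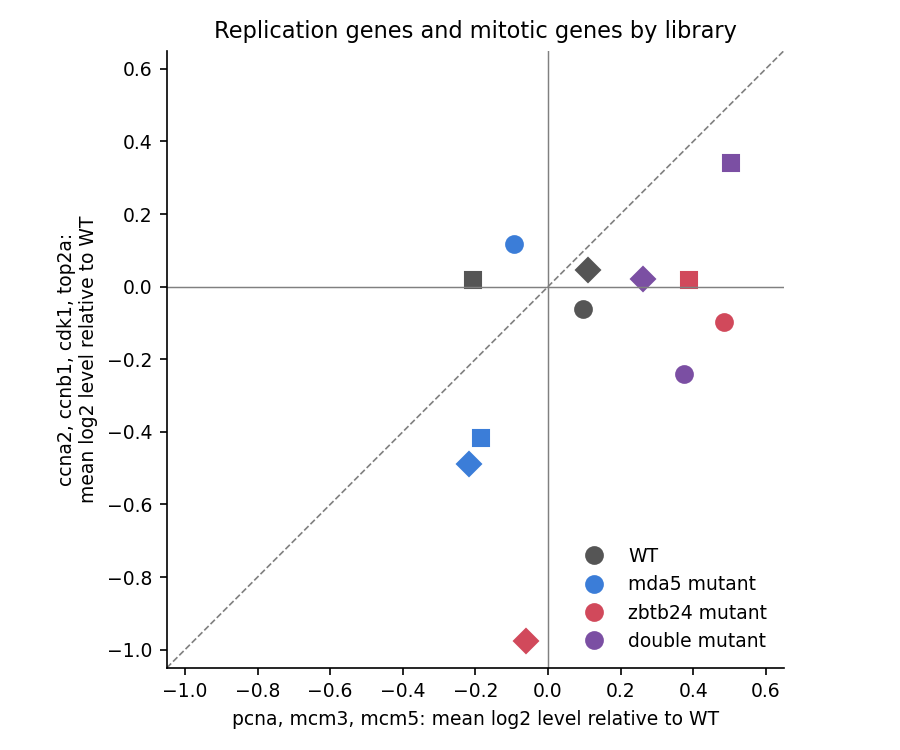
Mean log2 level relative to WT of the replication genes (horizontal axis) and of the cyclins, kinase and topoisomerase (vertical axis) in each of the 12 libraries, coloured by genotype and shaped by replicate (circle 1, square 2, diamond 3). All 6 libraries with the *zbtb24* mutation and 4 of the 6 without it lie below the dashed line of equal values, and *zbtb24* mutant replicate 3 lies lowest at -0.98.

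Within genotypes, the mitotic genes varied together more tightly than the replication genes, whereas over all libraries they did not. Over the 12 libraries, genotype differences included, Pearson's r was 0.59 to 0.95 (median 0.87) among the 6 pairs of mitotic genes and 0.83 to 0.91 (median 0.90) among the 3 pairs of replication genes. On deviations from the genotype means, Pearson's r was 0.93 to 0.98 among the 6 pairs of *ccna2*, *ccnb1*, *cdk1* and *top2a*, 0.64 to 0.81 among the 3 pairs of replication genes, and 0.41 to 0.86 for the 12 pairs between the roles. Without *zbtb24* mutant replicate 3 these ranges were 0.79 to 0.96, 0.39 to 0.71 and -0.07 to 0.70. *mcm3* was the least tied to the mitotic genes and *pcna* the most. These values describe 12 libraries that share a scaling and, by threes, a genotype, and they carry no test.

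**Figure D4:**
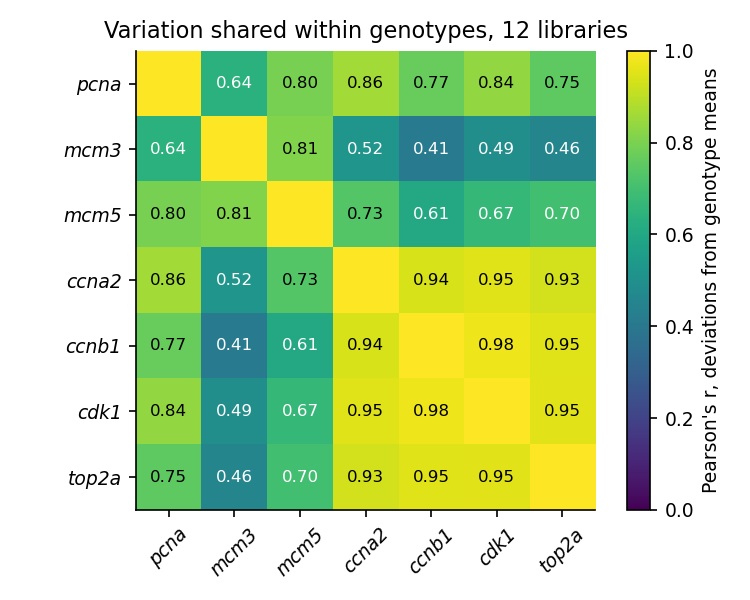
Pearson's r (colour and printed value) between each pair of the 7 genes over 12 libraries, on log2 levels from which the mean of the genotype was subtracted. The block of *ccna2*, *ccnb1*, *cdk1* and *top2a* holds values from 0.93 to 0.98, and *mcm3* has the lowest values, down to 0.41.

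The features whose pattern was most like the mean of the 7 genes were also genes of the cell cycle. Over the 12 libraries Pearson's r with that mean was 0.97 for *mki67*, which encodes the proliferation antigen Ki-67, and 0.95 for *dbf4b*, which in human cells activates the Cdc7 kinase that fires origins. *mki67* was at 5.36, 6.21 and 6.20 FPKM in WT, 6.19, 4.56 and 4.77 FPKM in *mda5* mutants, 7.04, 7.35 and 3.81 FPKM in *zbtb24* mutants, and 6.29, 8.38 and 6.79 FPKM in double mutants. Like *ccna2*, it was lowest in *zbtb24* mutant replicate 3 and above WT in all double mutant libraries. The lowest values were -0.90 for *RBSN*, which encodes an endosomal protein in human cells, and -0.88 for the unnamed ENSDARG00000069025. Set against the mean of the other 6, *ccna2* ranked 2nd, *cdk1* 65th and *pcna* 251st of 21617 features. *mcm5* ranked 535th, *ccnb1* 878th, *top2a* 2005th and *mcm3* 2376th.

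Further replication genes rose with the *zbtb24* mutation. Of a list of 42 genes of origin licensing, fork progression and nucleotide supply, 39 were found and 38 passed the filter. Averaged over *mda5* genotypes, 7 of 38 were higher and 0 lower, with 1.80% and 1.72% of all features called in these directions, and the median log2 change was 0.25 against 0.01 for all features. The 7 were *mcm4*, another subunit of the helicase (0.64 ± 0.11), *gins2* of the same moving complex (0.60 ± 0.12), the catalytic subunits of 3 polymerases, *pola1* (0.48 ± 0.10), *pold1* (0.45 ± 0.10) and *pole* (0.42 ± 0.09), *rfc4* of the loader that places PCNA on DNA (0.42 ± 0.08), and *dnmt1*, the maintenance DNA methyltransferase that follows the fork (0.42 ± 0.07; SE, adjusted p from 0.00935 to 0.0346 in limma).

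*mcm4* was at 5.40, 4.20 and 5.36 FPKM in WT, 5.51, 4.55 and 4.36 FPKM in *mda5* mutants, 7.85, 7.13 and 9.86 FPKM in *zbtb24* mutants, and 7.60, 8.73 and 6.45 FPKM in double mutants. The 6 libraries with the mutation were all above the 6 without it, as was the case in either direction for 2.71% of all features. *zbtb24* mutant replicate 3, lowest for 4 of the 7 genes above, was the highest library for *mcm4*. The count of 7 fell to 3 (*mcm4*, *rfc4* and *dnmt1*) without WT replicate 3, *mda5* mutant replicate 2 or 3, or double mutant replicate 1 or 2, to 4 without *zbtb24* mutant replicate 1 or 2, and was 11 without *zbtb24* mutant replicate 3 and 12 after the rescaling without the 4 most abundant features, which called 724 of all features higher and 135 lower in place of 389 and 372. Of all features, 761 were called as deposited. The fits that left 3 called 356, 399, 381, 570 and 391 in the order given. Those that left 4 called 680 and 442, and the fit with 11 called 859.

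In *zbtb24* mutants against WT, 5 of the 38 were higher (*mcm4*, *pola1*, *pold1*, *pole* and *dnmt1*) and 0 lower, with 4.92% and 6.65% of all features called in these directions, and their log2 changes lay between 0.51 and 0.67. The median of the list was 0.19. After the rescaling without the 4 most abundant features it was 0.67 and 27 of 38 were called higher, with the median of all features moved from -0.0044 to 0.46 and 8432 features called higher and 233 lower in place of 1063 and 1439. The count was 0 without WT replicate 3, 1 (*dnmt1*) without WT replicate 1, 2 without *zbtb24* mutant replicate 2, 3 without *zbtb24* mutant replicate 1 (1 of them, *gmnn*, lower) or without *mda5* mutant replicate 2, and 0 when only these 2 genotypes were fitted, in which case 221 features were called in place of 2502. The 5 fits without 1 library called 245, 1018, 744, 2152 and 1535 of all features, in that order. In double against *mda5* mutants none of the 38 was called, and 20 had an unadjusted p under 0.05, as did 2654 of 21623 features. All 38 were above 0 with a median of 0.34. This was shared by 28 of 29 genes of a mitosis list (median 0.31) and 6 of 7 of a G1/S list (median 0.34). Of the 38, *gins2* had the highest change in this comparison, at 0.93 ± 0.17 (SE, adjusted p = 0.0818 in limma).

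None of the other mitosis genes was called in any comparison as deposited. Of 35 such genes, 29 were found and tested, and the lowest adjusted p in limma was 0.0667 when *zbtb24* mutants were compared with WT, 0.207 when double mutants were compared with *mda5* mutants and 0.109 when the *mda5* genotypes were averaged, where 1, 3 and 2 of the 29 had an unadjusted p under 0.05. Over all 21623 features, 6793, 2654 and 4625 had one. The median log2 change of the 29 was -0.15, 0.31 and 0.06 in these comparisons. The first of these turned to 0.07 without *zbtb24* mutant replicate 3, and to 0.30 after the rescaling without the 4 most abundant features, where it remained 0.15 below the median of all features. *plk1*, a mitotic kinase, was at 6.09 FPKM in *zbtb24* mutant replicate 3 and at 9.06 and 10.8 FPKM in replicates 1 and 2. *pttg1*, which encodes securin, had the lowest adjusted p of the first comparison (0.0667 in limma) at -0.62 ± 0.20 (SE), and it was the 1 gene called when WT replicate 2 was left out. That fit called 3477 of 21623 features in the first comparison. After the rescaling 2 of 29 were called higher in this comparison, *bub3* of the spindle checkpoint and *smc4* of condensin, with 8432 of 21623 features called higher.

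**Figure D5:**
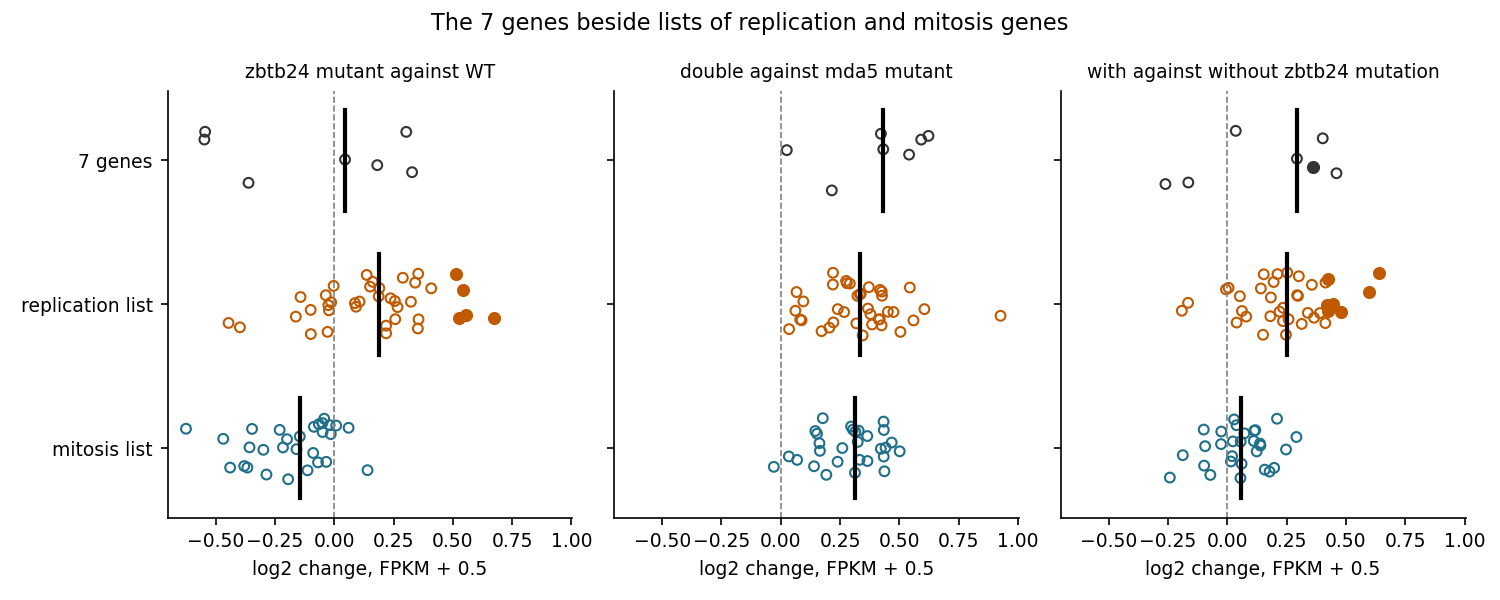
Log2 change of FPKM + 0.5 (horizontal axes) of the 7 genes, 38 replication genes and 29 mitosis genes in 3 comparisons, with filled points for an adjusted p under 0.05 in limma, black bars for medians and vertical scatter for legibility only. In the comparison with against without the *zbtb24* mutation 7 replication genes and 0 mitosis genes are filled.

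At the entry to S phase, *rb1*, which encodes the retinoblastoma protein that restrains E2F, rose with the *zbtb24* mutation. It was at 3.06, 2.11 and 2.36 FPKM in WT, 2.40, 2.49 and 2.64 FPKM in *mda5* mutants, 3.72, 3.67 and 3.57 FPKM in *zbtb24* mutants, and 3.42, 3.69 and 3.15 FPKM in double mutants. The libraries with and without the mutation did not overlap, as for 2.71% of all features in either direction. The averaged log2 change was 0.43 ± 0.08 (SE, adjusted p = 0.0210 in limma). It was the 1 called of 7 genes of a G1/S list, with 3.52% of all features called. *ccne1*, a cyclin E gene that drives entry into S phase, was lower in *zbtb24* mutants than in WT, at 0.71, 0.56 and 0.61 FPKM against 0.96, 1.21 and 1.41 FPKM (log2 change -0.58 ± 0.16, SE, adjusted p = 0.0411 in limma). In this comparison *ccne1* and *rb1* were the 2 called of the 7, with 11.6% of all features called. Another cyclin E gene of the list, *ccne2*, was not called. All *mda5* mutant libraries also lay below WT for *ccne1*, with 12.6% of all features doing so. Its averaged change of -0.23 ± 0.11 (SE, adjusted p = 0.255 in limma) was not called, and at a filter of 1 FPKM it was not tested.

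These G1/S calls were close to the threshold and were lost in many of the fits that left out 1 library. In *zbtb24* mutants against WT both were lost when any of WT replicates 2 and 3 and *zbtb24* mutant replicates 1, 2 and 3 was left out, or when only these 2 genotypes were fitted. The call for *ccne1* was also lost without any 1 of the *mda5* mutant replicates 1, 2 and 3. After the rescaling without the 4 most abundant features, *ccne1* was not called. The averaged call for *rb1* was lost without WT replicate 3, *mda5* mutant replicate 2, *zbtb24* mutant replicate 2 or double mutant replicate 2. *hells*, a chromatin remodeller that acts with Cdca7, was higher with the mutation when both *mda5* genotypes were averaged (0.51 ± 0.09, SE, adjusted p = 0.0188 in limma), and *cdca7b* did not pass (0.30 ± 0.13, adjusted p = 0.200). The paper also plots the level of *hells* in these libraries. The adjusted p of *hells* was 0.0534 without WT replicate 3, 0.0531 and 0.0521 without *mda5* mutant replicates 2 and 3, and 0.0522 without double mutant replicate 2.

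Markers of several cell types were read beside these values. Of the skin genes, *cyt1* rose (averaged log2 change 1.81 ± 0.29, SE, adjusted p = 0.0112 in limma) while *krt4* and *krt5* did not pass, and the summed level of the 3 was 3135 to 4093 FPKM in WT, 2512 to 3008 FPKM in *mda5* mutants, 3125 to 4528 FPKM in *zbtb24* mutants and 4473 to 4694 FPKM in double mutants. The blood gene *hbaa1* fell from 321 to 689 FPKM in WT to 0.154 to 7.92 FPKM in *zbtb24* mutants (adjusted p = 0.0142 in limma, 0.0626 without WT replicate 3) and was at 23.8 to 443 FPKM in *mda5* mutants and 2.88 to 156 FPKM in double mutants. The summed level of the germ cell genes *ddx4*, *dazl* and *piwil1* was 0.664 to 4.31, 3.97 to 8.46, 2.22 to 10.9 and 2.46 to 7.87 FPKM in WT, *mda5*, *zbtb24* and double mutants, with 0 of 3 called and the highest value in *zbtb24* mutant replicate 3. None of the 3 was listed at 0 in any library. The liver, exocrine pancreas, neuron and leukocyte genes found (6 in all) were not called in these comparisons. Blood, neurons and leukocytes rested on 1 gene each, *hbaa1*, *elavl3* and *lyz*. For the other blood gene chosen, *hbba1*, no identifier was found. The level of *hbaa1* varied widely between replicates of each mutant genotype, and whether its fall reflects fewer blood cells was not tested. The pancreas gene *cpa5*, the neuron gene *snap25a*, the leukocyte genes *mpx* and *mpeg1.1* and the 3 muscle genes could not be matched. The part of these markers in the values of the 7 genes was not tested.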

How the data were processed

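The authors trimmed the paired reads of 12 polyA libraries with Trimmomatic 0.33, mapped them with TopHat2 2.1.1 to GRCz10 and estimated expression with Cuffquant of Cufflinks 2.2.1. The FPKM used here were deposited by the authors after normalization between libraries with Cuffnorm, as 1 column per library and 0 further columns of sample values. Fragment counts and gene lengths were not used here, and an FPKM of 0 can be a failed estimate.

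The table held 32271 features, of which 26418 could be given a symbol through their Ensembl identifier. Groups and replicate numbers came from the sample titles. No pair of libraries was duplicated.

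The 21623 features whose mean reached 0.5 FPKM were fitted on log2(FPKM + 0.5), a scale that understates changes of low genes, with limma 3.58.1 in R 4.3.3 (4 genotype means, 8 residual degrees of freedom, eBayes with trend). This fit was used in place of the pairwise test that the study names as its default. Two-sided p-values were adjusted over all tested features (Benjamini-Hochberg) within each of 9 comparisons. The fit was tested on simulated data.

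The 7 genes, the pathway and marker lists and the tests were chosen with earlier results of these data known; *cdca7* was looked up as a check of labels after its values were seen. All 7 genes are named, with the 2 features most and the 2 least like their mean. The other genes named were chosen after their values were seen: those called in a list, the highest or lowest of a list, and single examples. List genes with several identifiers (2) or none (7) among the 84 fixed were left out. Sequences and promoter motifs were not analysed here. As alternatives, the pseudocount was set to 0.1 or 1, and the filter to 1 FPKM or none. Others were quantile normalization, median centring, rescaling without the 4 most abundant features, a replicate block, no trend, fits of the compared groups alone and fits without each library.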

Additional observations from a re-analysis of the deposited data

How the results depend on the processing

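The number of the 7 genes called was within 1.5 times its value in all comparisons under all alternatives run except those given here. With both *mda5* genotypes averaged, 1 of 7 was called for the *zbtb24* mutation, but 0 with no filter on low values (*mcm3* at an adjusted p of 0.0552 in limma), 2 after quantile normalization, 3 after rescaling without the 4 most abundant features, and 0 to 3 when 1 library was left out. Over all features, 761 were called as deposited and 772 of 28502 with no filter. Quantile normalization called 931, the rescaling 859, and the fits without 1 library 356 to 859. Replicate numbers did not pair the samples: the correlation of same-numbered deviations lay between -0.12 and 0.17. With the number as a block, 0 of 7 were called in that comparison (*mcm3* at an adjusted p of 0.0598 in limma), with 558 of 21623 features called. The block also ended the calls of *ccne1* and *rb1* in *zbtb24* mutants against WT (adjusted p = 0.0662 and 0.0526 in limma) and left 3 in place of 5 called replication genes there. Of all features, 1578 were called there in place of 2502. The rescaling also gave 3 of 7 called (*pcna*, *mcm3* and *mcm5*, all higher) in *zbtb24* mutants against WT, with 8665 of 21623 features called. It gave 3 of 7 in the test of any difference among the 4 genotypes, with 6228 of 21623 features called. By construction it multiplies every value of a library by 1 factor, so it moved all features together.

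Under the alternatives run, the log2 changes that turned sign were uncalled ones. After the rescaling, *cdk1* was at 0.15 in *zbtb24* mutants against WT, *pcna* at 0.24 in *mda5* mutants against WT, *top2a* at -0.10 in double against *mda5* mutants, and *ccnb1* at 0.021 in the average. The interaction was then -0.23 for *pcna*, -0.47 for *mcm3*, -0.34 for *mcm5*, -0.11 for *ccna2* and -0.063 for *top2a*. After quantile normalization, *top2a* was at -0.0011 in double against *mda5* mutants. With 1 library left out, *ccna2* in *zbtb24* mutants against WT ran from -0.13 to 0.35, *top2a* in double against *mda5* mutants from -0.094 to 0.17, and *cdk1* in the average from -0.063 to 0.20. In double mutants against WT, 3 genes turned sign over all alternatives. These were *ccnb1*, from -0.22 to 0.35, *cdk1*, from -0.083 to 0.47, and *top2a*, from -0.27 to 0.24.

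With 3 pools per genotype, differences of about the size of the replicate spread were not detectable, and the intervals above give the sizes that remain possible.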
